A study of Mus musculus with 6 samples.

Results

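The Ly6 family cluster on mouse chromosome 15 was examined in AML blasts with and without TET2, through 10 of its genes in order of position: *Lynx1*, *Ly6d*, *Ly6k*, *Ly6e*, *Ly6i*, *Ly6a*, *Ly6c1*, *Ly6c2*, *Ly6g* and *Ly6h*. The 10 genes are a small part of the 53458 genes with a transcript in the files, and all 10 passed the filter on low counts that kept 22170 genes. They were chosen by gene symbol with their read counts in these same mice already known, so the genotype differences given for them describe the data and are not tests. Reads of all transcripts of a gene were summed and compared between 3 *Cebpa*-/p30 *Tet2*+/+ mice (19, 23 and 24) and 3 *Cebpa*-/p30 *Tet2*-/- mice (5, 7 and 8), with 1 library from each mouse.

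All 6 mice carried *Cebpa*-/p30 blasts, in which 1 *Cebpa* allele was deleted and the other makes only the short p30 form of the myeloid transcription factor. Donor marrow of strain C57BL/6J (C57BL/6 in the labels) was transplanted into lethally irradiated female C57BL/6J.SJL recipients, 10 to 12 weeks old, and the floxed *Cebpa* allele, and in *Tet2*-/- mice also the floxed *Tet2* alleles, were recombined by Mx1-Cre after poly(I:C) injections. Poly(I:C), an inducer of interferon, was thus part of the history of both genotypes. Leukemic marrow was taken from moribund mice, frozen, and sorted as live CD45.2+ cells that lacked CD3, B220 and Ter119, so each library is a bulk sample of 1 leukemia and residual normal donor cells of the same gate may be in it. In such bulk samples fewer cells of a type and less RNA per cell cannot be told apart.

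Ly6 genes encode small cysteine-rich proteins with the Ly6/uPAR fold, most of them held on the outer cell surface by a glycosylphosphatidylinositol (GPI) anchor. In bone marrow they are best known as surface markers: Ly6C on monocytes and developing granulocytes, Ly6G on neutrophils, and Sca-1, the product of *Ly6a*, on stem cells and on cells exposed to interferon. The genes arose by duplication and lie side by side, and several are so similar that short reads can be hard to assign to one copy.

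Each of the 10 genes had 3 coding exons in its most counted complete transcript, and the second of them is printed to show how near the myeloid members stand to each other and how far *Ly6k* stands from them. Sequences are the coding strand of GENCODE M21 transcripts (build GRCm38), and capitals mark the bases that differ from *Ly6c2* at the same place. In the *Ly6k* exon, capitals mark instead the CG pairs, where DNA methylation is placed.
Ly6c2 chr15:75110511-75110627, minus strand: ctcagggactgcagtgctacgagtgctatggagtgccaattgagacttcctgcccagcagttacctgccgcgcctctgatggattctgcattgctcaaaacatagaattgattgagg
Ly6c1 chr15:75047353-75047469, minus strand: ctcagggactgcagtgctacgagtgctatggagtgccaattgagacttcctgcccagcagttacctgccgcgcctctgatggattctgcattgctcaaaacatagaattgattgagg
Ly6i chr15:74981886-74982002, minus strand: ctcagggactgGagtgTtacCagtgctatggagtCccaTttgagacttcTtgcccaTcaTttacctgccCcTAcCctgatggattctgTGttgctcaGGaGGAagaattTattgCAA
Ly6a chr15:74996452-74996568, minus strand: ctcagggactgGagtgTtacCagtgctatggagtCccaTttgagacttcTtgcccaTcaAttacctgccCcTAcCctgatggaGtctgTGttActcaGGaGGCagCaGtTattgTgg
Ly6g chr15:75156694-75156810, plus strand: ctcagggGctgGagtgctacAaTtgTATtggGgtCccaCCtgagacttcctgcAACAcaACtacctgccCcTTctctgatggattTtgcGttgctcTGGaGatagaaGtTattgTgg
Ly6k chr15:74798535-74798633, minus strand: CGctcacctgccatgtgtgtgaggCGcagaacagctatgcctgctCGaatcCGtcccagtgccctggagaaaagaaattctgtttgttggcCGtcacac

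The exon of *Ly6c1* was identical to that of *Ly6c2* over all 117 bases. *Ly6i* differed from it at 23 bases, *Ly6a* at 25 and *Ly6g* at 29. The *Ly6k* exon was 99 bases long with 5 CG pairs, and aligned to the *Ly6c2* exon with 43.3% identity. CG pairs also occur in the exons of *Ly6c2*, *Ly6c1* and *Ly6g*, where they were not marked, and DNA methylation was not examined here. Over the whole coding sequence, *Ly6c1* and *Ly6c2* were 97.7% identical, and *Ly6i* and *Ly6a* 86.3%. The third coding exon of the *Ly6c* pair, printed because it holds bases by which a read can be placed, differed at 3 of its 206 bases, in capitals.
Ly6c2 chr15:75108546-75108751, minus strand: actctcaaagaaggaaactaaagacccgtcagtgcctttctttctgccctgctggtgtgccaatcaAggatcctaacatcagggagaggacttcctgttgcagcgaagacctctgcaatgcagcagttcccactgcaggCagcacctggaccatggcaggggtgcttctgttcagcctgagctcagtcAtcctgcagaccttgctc
Ly6c1 chr15:75045405-75045610, minus strand: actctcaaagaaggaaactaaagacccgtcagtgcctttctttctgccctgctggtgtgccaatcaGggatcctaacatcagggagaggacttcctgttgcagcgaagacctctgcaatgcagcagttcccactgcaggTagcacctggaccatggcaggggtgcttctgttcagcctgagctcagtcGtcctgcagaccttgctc

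These likenesses bear on the counts. Of the distinct 75-base windows in *Ly6c1* transcripts, 75 bases being the number of sequencing cycles, 19.05% also occurred in a transcript of another gene, and 9.46% of those of *Ly6c2*. For *Ly6a* the share was 6.33% and for *Ly6i* 0.519%, while no such window of *Ly6g*, *Ly6d*, *Ly6e*, *Lynx1* or *Ly6h* was shared. Over windows of 31 bases the shares were larger, with 46.8% for *Ly6c1*, 31.9% for *Ly6a* and 23.8% for *Ly6c2*. For *Ly6i* this share was 19.2% and for *Ly6g* 9.55%. The level of *Ly6c1*, beside a copy with far more reads, is therefore uncertain, and those of *Ly6a* and *Ly6i* are less certain too. *Ly6k* shared 24.5% of its 75-base windows, all of them with *Gm17189*, an antisense gene. Its exons cover 395 of the 829 exon bases of *Ly6k* on the opposite strand. The library kit does not mark strand, so reads from the shared bases cannot be assigned to either gene by strand.

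The libraries summed to 13036643 to 32855343 estimated reads, the most in *Tet2*-/- mouse 5. *Tet2* itself had 73.6, 79.5 and 98.4 CPM (reads scaled to a common library size with TMM factors, which adjust for library composition) in mice 19, 23 and 24 and 111, 79.4 and 96.7 CPM in mice 5, 7 and 8. The fitted log2 difference was 0.19 with a standard error of 0.19 (edgeR, adjusted p = 0.842), so the gene total did not separate the genotypes. The total counts all exons and the sources used here do not name the exon that the floxed allele loses, so it checks neither the deletion nor the labels. *Mpo*, a gene of early granulocytes, was high in all 6 mice, while *Cd3e*, a T cell gene, was at most 4.24 CPM.

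Together *Ly6c2* and *Ly6e* took most of the cluster's reads in all 6 mice. They were its 2 highest genes in 5 of 6, and in mouse 7 *Ly6g*, with 16.4% of the reads, was above *Ly6e*, with 15.2%. On the TPM scale, which divides by transcript length, *Ly6c2* had the highest mean level in both genotypes, with 1857 ± 339 TPM (SD, n = 3) in *Tet2*+/+ and 3198 ± 509 TPM (SD, n = 3) in *Tet2*-/- blasts. *Ly6e* was next with 1427 ± 883 and 993 ± 541 TPM (SD, n = 3 each). In *Tet2*+/+ mice the ranges of these 2 genes overlapped, as *Ly6e* was above *Ly6c2* in mouse 23, and in *Tet2*-/- mice *Ly6c2* was above *Ly6e* in all 3 without overlap. *Ly6g* followed in both genotypes by its mean, and its range overlapped that of *Ly6e* in *Tet2*-/- mice.

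Below these the order of the levels in TPM differed between genotypes by the place of *Ly6k*. In *Tet2*+/+ blasts *Ly6k* came right after *Ly6g*, between 56.7 and 64.1 TPM, with a range apart from those of *Ly6g* above and *Ly6a* below. *Ly6a*, *Ly6c1*, *Ly6i* and *Ly6d* came next with mean levels of 8.77, 5.24, 3.34 and 2.08 TPM, and each overlapped its neighbour in this order. *Lynx1*, at 0.710 TPM, and *Ly6h*, at 0.0508 TPM, were last. In *Tet2*-/- blasts *Ly6k* stood lower, between 1.21 and 3.71 TPM, below *Ly6a*, *Ly6c1* and *Ly6i* at mean levels of 22.3, 12.2 and 10.2 TPM.

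**Figure D1:**
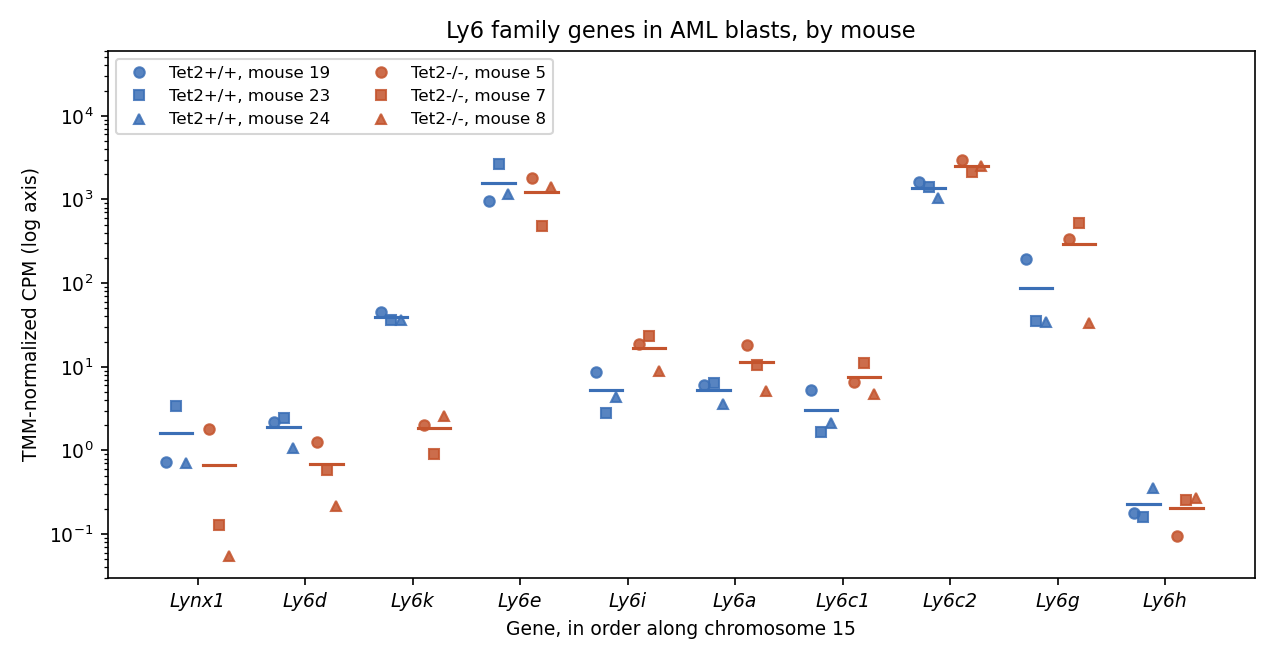
TMM-normalized CPM (log axis) of the 10 genes in each of 6 mice, in order along the chromosome. Points are mice and lines are means of 3 mice, and only *Ly6k*, *Ly6i* and *Ly6c2* show genotypes that do not overlap, *Ly6i* by the small gap between 8.55 and 8.79 CPM.

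With edgeR's quasi-likelihood test at an adjusted p under 0.05, 1 of the 10 genes was called lower in *Tet2*-/- blasts, *Ly6k*, beside 0.0451% of all genes tested. No member was called higher, beside 0% of all genes, and at an unadjusted p under 0.05 *Ly6i*, *Ly6c1* and *Ly6c2* were 3 members on the higher side, beside 3% of all genes, and *Ly6k* the 1 on the lower side, beside 5.12%. With any single mouse omitted *Ly6k* missed the threshold of edgeR, at log2 fold changes of -4.72 to -4.10. With DESeq2 on length-scaled counts, the kind of test the study used, *Ly6k* was called lower beside 1.47% of genes, and *Ly6c2* higher beside 0.29%. All 3 *Tet2*-/- mice lay below all 3 *Tet2*+/+ mice for *Ly6k* alone, a pattern that 7.94% of all genes showed, and above them for *Ly6i* and *Ly6c2*, a pattern of 6.41% of genes. Since the members were chosen with this contrast known, nothing is read from these shares.

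*Ly6k* (ENSMUSG00000044678, chr15:74796874-74799986, minus strand) encodes a GPI-anchored protein known from testis, where it takes part in sperm function, and from tumors. It had 45.2, 36.7 and 35.8 CPM in mice 19, 23 and 24, and 1.99, 0.900 and 2.60 CPM in mice 5, 7 and 8. The *Tet2*+/+ mice were close together, within 1.26-fold, and the highest *Tet2*-/- mouse was far below the lowest of them. This made a log2 fold change of -4.40 (standard error 0.40), a 21.2-fold lower level without TET2. In reads these levels were 755, 685 and 508 against 63, 14 and 48, so *Ly6k* remained detectable in each *Tet2*-/- mouse.

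Both annotated *Ly6k* transcripts were lower. *Ly6k-202*, of 612 bases, had 50.1, 48.4 and 45.6 TPM in *Tet2*+/+ mice and 1.22, 0.896 and 2.68 TPM in *Tet2*-/- mice. *Ly6k-201*, of 791 bases, had 13.99, 10.7 and 11.1 TPM against 1.14, 0.314 and 1.02 TPM. The longer one thus kept the smaller part in *Tet2*+/+ blasts, 28.1% ± 2.34 of the reads (SD, n = 3), and held 59.9%, 35.8% and 37.8% in mice 5, 7 and 8, where 63 reads or fewer were shared out.

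Among the marker lists of other cell types, the summed levels of 2 also parted the genotypes as *Ly6k* did. The 5 tested eosinophil and basophil genes summed to 320 to 417 CPM in *Tet2*+/+ and 56.9 to 108 CPM in *Tet2*-/- mice, with 0 called by edgeR, 2 at an unadjusted p under 0.05 and 2, *Il5ra* and *Cpa3*, called lower by DESeq2 on length-scaled counts. The stem and progenitor genes, given with *Ly6a*, were the other list. Their part in the *Ly6k* difference was not tested. The sums of plasmacytoid dendritic cell, T and NK cell and erythroid genes overlapped between genotypes, with 0 genes called by edgeR in each and 1, 1 and 0 at an unadjusted p under 0.05, and DESeq2 called *Siglech* and *Ncr1* lower. Of 5 plasma cell genes, 0 were called by edgeR, 2, *Jchain* and *Mzb1*, had an unadjusted p under 0.05, and DESeq2 called *Jchain* lower. Their sum overlapped, at 270 to 370 CPM in *Tet2*+/+ and 198 to 355 CPM in *Tet2*-/- mice, and *Xbp1*, which many cell types express, was the largest term of it in all 6 mice. The mean log2(CPM + 1) of these genes, each centred over the mice, did not overlap, at 0.21 to 0.82 in *Tet2*+/+ and -1.04 to 0.12 in *Tet2*-/- mice, and the part of plasma cells in the *Ly6k* difference was not tested either.

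The antisense gene *Gm17189*, which overlaps *Ly6k*, had 7, 18 and 9 reads in mice 19, 23 and 24 and 1, 0 and 2 reads in mice 5, 7 and 8. Its reads were few beside those of *Ly6k* in every mouse, and its genotypes did not overlap (adjusted p = 0.324 with edgeR). The neighbour *D730001G18Rik* (chr15:74770908-74778859, minus strand), between *Ly6d* and *Ly6k*, had 8, 14 and 10 reads against 0, 0 and 1. It missed the threshold with edgeR (adjusted p = 0.245) and passed it with DESeq2, and it was singled out after its values were seen.

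*Ly6d* (chr15:74762056-74763620, minus strand), a marker of early B-lineage progenitors, lies next to *Ly6k* on the side of *Lynx1*. It had 2.21, 2.46 and 1.06 CPM in *Tet2*+/+ and 1.27, 0.579 and 0.217 CPM in *Tet2*-/- mice. Only mouse 5 exceeded the lowest *Tet2*+/+ mouse, mouse 24, and the log2 fold change was -1.44 (standard error 0.68). Of 8 B cell genes, 0 were called by edgeR, 0 had an unadjusted p under 0.05 and 1, *Pax5*, was called lower by DESeq2 on length-scaled counts. Their summed level was 24.9 to 84.97 CPM in *Tet2*+/+ and 23.3 to 64.0 CPM in *Tet2*-/- mice, and *Cd79b* made up 46.7 of the 52.9 CPM of mouse 8. The mean log2(CPM + 1) of the 8 genes, each centred over the mice, overlapped at -0.45 to 0.66 in *Tet2*+/+ and -0.56 to 0.55 in *Tet2*-/- mice, and was lowest in mouse 8, as *Ly6d* was. The sort against B220 should remove B cells, and the part of any left in the *Ly6d* values was not tested.

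*Lynx1* (chr15:74747852-74753046, minus strand), known as a modulator of nicotinic acetylcholine receptors in neurons, was the first gene of the cluster and near the limit of detection. It had 12, 64 and 10 reads in *Tet2*+/+ mice and 57, 2 and 1 reads in *Tet2*-/- mice. Mice 23 and 5 were high and the others low, so the genotypes overlapped, and the log2 fold change of -1.21 had a standard error of 1.203. On length-scaled counts it was -2.89 with edgeR and -2.95 with DESeq2. *Ly6h* (chr15:75551268-75567255, minus strand), a brain-expressed gene at the far end, had 3 to 5 reads in every mouse, too few for a fold change.

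*Ly6c2* (ENSMUSG00000022584, chr15:75108158-75111970, minus strand) encodes the main form of the Ly6C antigen. It had 1623, 1428 and 1049 CPM in mice 19, 23 and 24 and 2993, 2124 and 2495 CPM in mice 5, 7 and 8. Every *Tet2*-/- mouse was above every *Tet2*+/+ mouse, and the spread within genotypes was small, 1.55-fold and 1.41-fold from lowest to highest. As a log2 fold change this was 0.89 (standard error 0.27), or 1.86-fold. This was a small fold change on a very large number of reads, between 14895 and 94619 in a mouse.

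The transcripts of *Ly6c2* kept their proportions. *Ly6c2-201* took 53.3% ± 0.721 of the reads in *Tet2*+/+ and 53.7% ± 1.49 in *Tet2*-/- blasts (SD, n = 3 each). The difference in log2(TPM + 1) was 0.80 for *Ly6c2-201*, 0.72 for *Ly6c2-203* and 0.82 for *Ly6c2-204*, with standard errors of 0.21, 0.20 and 0.18. The gene-level difference was thus present in each of the main transcripts.

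*Ly6c1* (chr15:75044018-75048830, minus strand), the second gene for Ly6C and known from endothelium and lymphocytes, had 5.26, 1.66 and 2.11 CPM in *Tet2*+/+ and 6.64, 11.3 and 4.78 CPM in *Tet2*-/- mice. Only mouse 8 was below the highest *Tet2*+/+ mouse, and the log2 fold change was 1.32 (standard error 0.55). Its reads were 0.116% to 0.526% of those of the *Ly6c* pair. With the pair summed as 1 gene, the log2 fold change was 0.89, that of *Ly6c2*. Of 5 endothelial markers, *Tek* and *Emcn* were below the filter, *Cdh5* was at most 0.597 CPM and *Kdr* at most 1.54 CPM, in mouse 7. *Pecam1*, which myeloid cells and platelets also express, had 59.3 to 226 CPM. The 3 tested genes summed to 86.4 to 226 CPM in *Tet2*+/+ and 59.9 to 137 CPM in *Tet2*-/- mice, and 0 were called by edgeR or DESeq2 and 0 had an unadjusted p under 0.05. Endothelial cells lack CD45, so the sort for CD45.2+ cells should remove them, and the part of any left in the *Ly6c1* values was not tested.

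*Ly6i* (chr15:74979534-74983430, minus strand), a little-studied relative of *Ly6a* and *Ly6c*, had 8.55, 2.84 and 4.37 CPM in *Tet2*+/+ and 18.5, 23.7 and 8.79 CPM in *Tet2*-/- mice. The genotypes did not overlap, but mouse 8 was barely above mouse 19. On the log2 scale the change was 1.69 (standard error 0.52).

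*Ly6a* (chr15:74994877-74998031, minus strand), the gene of Sca-1, had 5.98, 6.32 and 3.59 CPM in *Tet2*+/+ and 18.1, 10.6 and 5.10 CPM in *Tet2*-/- mice. Mice 5 and 7 were above all *Tet2*+/+ mice and mouse 8 was among them, and the log2 fold change was 1.09 (standard error 0.49). Of 8 stem and progenitor genes, 0 were called by edgeR, 2 had an unadjusted p under 0.05 and 1, *Gata2*, was called lower by DESeq2 on length-scaled counts. Their summed level was 307 to 436 CPM in *Tet2*+/+ and 153 to 225 CPM in *Tet2*-/- mice, on the opposite side to *Ly6a*. *Cd34* was the largest term except in mouse 7, with 170, 310 and 193 CPM against 90.0, 32.1 and 132 CPM. The mean log2(CPM + 1) of the 8 genes, each centred over the mice, did not overlap either. It was 0.17 to 0.32 in *Tet2*+/+ and -0.49 to 0.06 in *Tet2*-/- mice. The log2 fold change was negative for 7 of the 8 genes and 1.75 (standard error 0.80) for *Flt3*.

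*Ly6e* (chr15:74955051-74959905, plus strand), an interferon-induced member that acts in virus entry and in placenta formation, had 954, 2633 and 1178 CPM in *Tet2*+/+ and 1795, 481 and 1401 CPM in *Tet2*-/- mice. Mouse 23 was the highest and mouse 7 the lowest. Between these extremes mice 8 and 5 were above mice 19 and 24, so the range of *Tet2*+/+ mice overlapped that of *Tet2*-/- mice. The log2 fold change was -0.37 (standard error 0.57). *Ly6e-215* took 76.5% ± 0.834 and 75.6% ± 0.515 of its reads (SD, n = 3 each) in the 2 genotypes.

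*Ly6e*, *Ly6a* and *Ly6c2* are known to respond to interferon, so the interferon response genes were read beside them. Of 20 such genes, 0 were called by edgeR, 2 had an unadjusted p under 0.05 and 0 were called by DESeq2 on length-scaled counts. Their median log2 fold change was -0.23, beside 0.0016 for all genes tested. Their summed level was 437 to 490 CPM in *Tet2*+/+ and 312 to 617 CPM in *Tet2*-/- mice, highest in mouse 7, where *Ly6e* was lowest, and lowest in mouse 8. The sums overlapped, whereas the mean log2(CPM + 1) of the 20 genes, each centred over the mice, did not, at 0.13 to 0.23 in *Tet2*+/+ and -0.53 to 0.0069 in *Tet2*-/- mice.

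*Ly6g* (chr15:75155240-75159126, plus strand), the defining surface marker of mouse neutrophils, varied most among the abundant members. It had 194, 34.8 and 34.0 CPM in mice 19, 23 and 24 and 338, 522 and 33.5 CPM in mice 5, 7 and 8. Mice 19, 5 and 7 were high and mice 23, 24 and 8 low, so both levels occurred in both genotypes. The log2 fold change of 1.76 had a standard error of 1.04, and values within the *Tet2*-/- genotype spanned 15.6-fold. *Ly6g-202* took 68.8% ± 2.67 and 70.2% ± 0.676 of the reads (SD, n = 3 each), so the transcripts kept their proportions at both levels.

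Of 12 neutrophil genes, which do not include *Ly6g*, 0 were called by edgeR, 0 had an unadjusted p under 0.05 and 0 were called by DESeq2 on length-scaled counts, and their median log2 fold change was 0.89. Their summed level was 60671, 12680 and 44507 CPM in mice 19, 23 and 24 and 67969, 126174 and 27476 CPM in mice 5, 7 and 8. The 3 mice highest in *Ly6g* were also the 3 highest in this sum, whereas mouse 24, which came next in the sum, had as little *Ly6g* as mouse 23. The part of neutrophil content in the *Ly6g* values was not tested.

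Of 9 monocyte genes, 0 were called by edgeR, 0 had an unadjusted p under 0.05 and 0 were called by DESeq2 on length-scaled counts. Their summed level was 802, 1849 and 589 CPM in *Tet2*+/+ and 1715, 236 and 2879 CPM in *Tet2*-/- mice. *Ly6e* was lowest in mouse 7, which was also lowest in this sum, and mice 23, 5 and 8 were the 3 highest in both. Within each genotype the mouse lowest in the sum, mouse 24 or mouse 7, was also lowest in *Ly6c2*, while across genotypes mouse 7 had more *Ly6c2* than any *Tet2*+/+ mouse. The part of monocytes in these values was not tested.

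**Figure D2:**
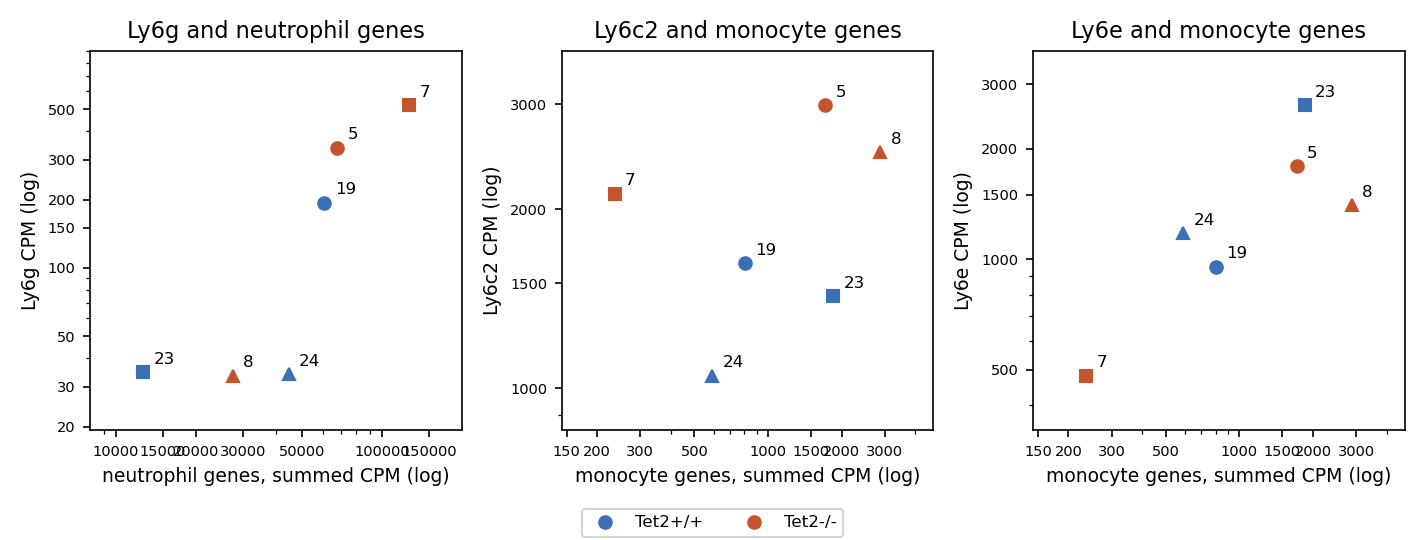
CPM of *Ly6g*, *Ly6c2* and *Ly6e* in each mouse (log axes) against the summed CPM of the 12 neutrophil or 9 monocyte genes, with mouse numbers beside the points. Mouse 7 is highest for *Ly6g* and the neutrophil sum, and lowest for *Ly6e* and the monocyte sum.

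Of 6 early granulocyte genes, 0 were called by either edgeR or DESeq2 on length-scaled counts and 1 had an unadjusted p under 0.05, with sums of 5967 to 7175 CPM in *Tet2*+/+ and 5196 to 7153 CPM in *Tet2*-/- mice. *Mpo*, the largest term, had 4527, 4110 and 4230 CPM in mice 19, 23 and 24 and 3394, 3091 and 2662 CPM in mice 5, 7 and 8, lower without overlap (edgeR, adjusted p = 0.664), and *Ms4a3* was higher without overlap (adjusted p = 0.580). For *Ly6k* the germline genes were read as well, since it is a testis gene. Of 8 germline genes 3 passed the filter, *Ddx4*, *Tex101* and *Dmrt1*, with sums of 0.482 to 1.83 CPM in *Tet2*+/+ and 0.0643 to 1.39 CPM in *Tet2*-/- mice. With edgeR 0 of the 3 were called, 0 had an unadjusted p under 0.05 and DESeq2 called 0. *Tex101*, whose product binds LY6K in testis, had at most 0.493 CPM, so *Ly6k* was expressed in *Tet2*+/+ blasts nearly without it.

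Summed over the 10 genes, the cluster gave 2839, 4150 and 2309 CPM in mice 19, 23 and 24 and 5174, 3174 and 3951 CPM in mice 5, 7 and 8. These sums overlapped between genotypes. *Ly6c2* made up 45.7% ± 11.4 of the sum in *Tet2*+/+ and 62.6% ± 4.55 in *Tet2*-/- blasts (SD, n = 3 each), while the share of *Ly6e* ran from 33.6% to 63.5% and from 15.2% to 35.5%. In mouse 19 the make-up was nearly that of mouse 5, with *Ly6c2* at 57.2% and 57.8%. The share of *Ly6g* was highest in mouse 7, at 16.4%.

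**Figure D3:**
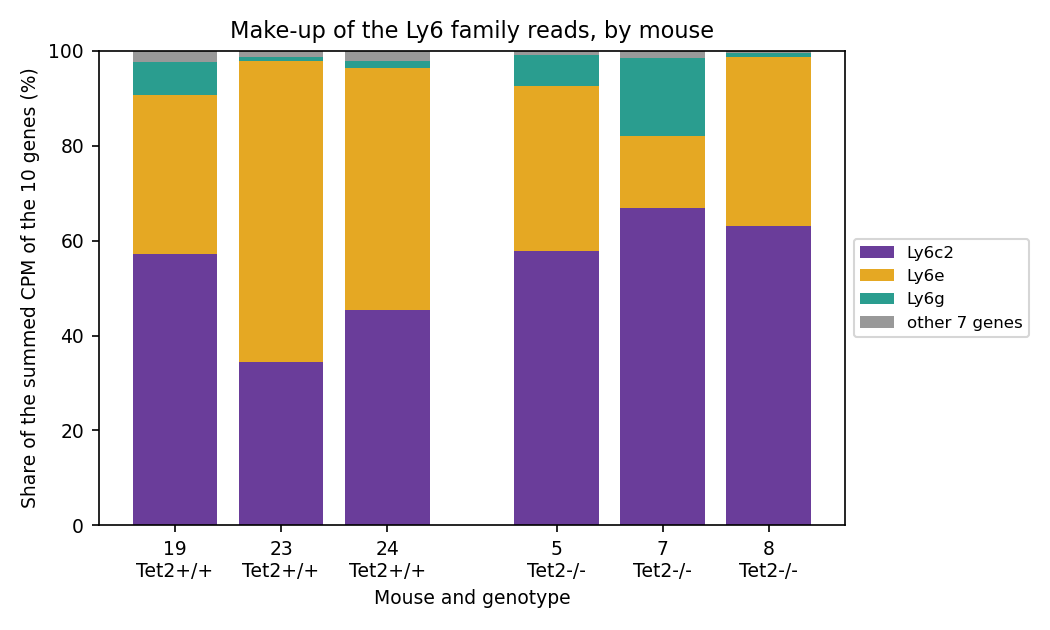
Share of the summed CPM of the 10 genes taken by *Ly6c2*, *Ly6e*, *Ly6g* and the other 7 genes, with 1 bar per mouse. *Ly6c2* ranges from 34.4% in mouse 23 to 66.9% in mouse 7, and *Ly6g* exceeds 6% in mice 19, 5 and 7.

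Seen along the chromosome, the genotype differences of the members fell into a run of negative log2 fold changes from *Lynx1* to *Ly6e* and a run of positive ones from *Ly6i* to *Ly6g*, except that *Ly6e* turned positive without mouse 23 or mouse 7. *Ly6k*, with -4.40, stood apart from *Ly6d* and *Ly6e*, the members on its sides, with -1.44 and -0.37. It did not stand apart from the low-count genes beside it, *D730001G18Rik* with -4.86 and *Gm17189* with -3.69. The other tested genes between *Lynx1* and *Ly6e* were *2010109I03Rik* with 0.06, *Gm6610* with -0.07, *Gm39556* with 0.54 and *Gm29126* with -1.13. From *Ly6i* on, the 5 neighbouring members were 1.69, 1.09, 1.32, 0.89 and 1.76. These 5 are also the most alike in sequence, with coding identities of 78.1% to 97.7% among them, against 45.6% to 53.9% for any other pair of the 10.

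The genes around the members were tested in the same fit. Of 72 tested genes that are not members and start inside the span or within 1 Mb of it, edgeR called 0 in either direction, 9 had an unadjusted p under 0.05, and DESeq2 called 1, *D730001G18Rik*. Of the 15 among them inside the span, 4 had an unadjusted p under 0.05. Before *Lynx1*, the nearest tested genes were *Them6*, whose log2 fold change was 0.03 (standard error 0.80, adjusted p = 0.997), and *Jrk*, at -0.79 (standard error 0.63, adjusted p = 0.793). The nearest after *Ly6h* were *Zfp41*, with 0.33 (standard error 0.27, adjusted p = 0.797), and *Gm46519*, which had 1 or 2 reads a mouse. The median log2 fold change was -0.07 for 6 tested genes before the span, 0.81 for the 15 inside it, 10 of them positive, and 0.35 for 51 after it. Over all 72 it was 0.34, with 53 positive, beside 50.1% of all genes tested, and 9 were higher and 3 lower without overlap, beside 6.41% and 7.94% of all genes.

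**Figure D4:**
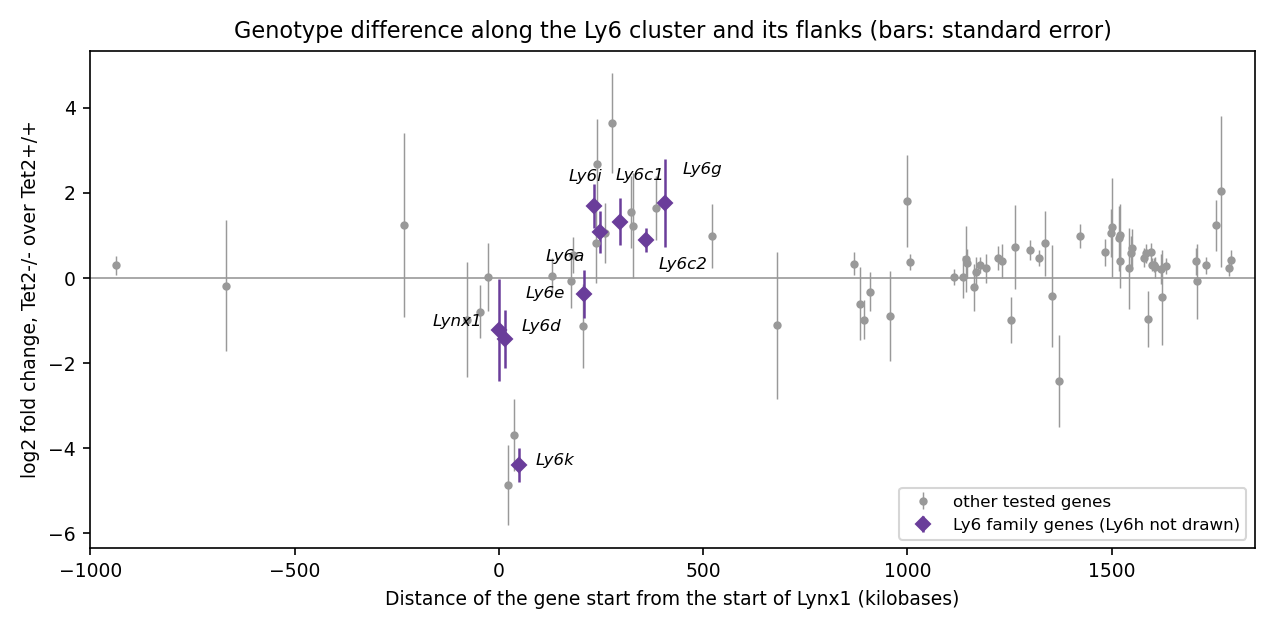
The log2 fold change (*Tet2*-/- over *Tet2*+/+, bars are standard errors) of 9 members and the 72 other tested genes against the distance of their start from that of *Lynx1* in kilobases. *Ly6k* at -4.40 is the lowest member, 2 low-count neighbours lie near it, and *Ly6i* to *Ly6g* lie above 0.

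Among 14 other Ly6/uPAR genes listed for chromosome 15, 12 had transcripts in the files and 4 were tested. *I830127L07Rik*, annotated as a transcribed pseudogene and lying between *Ly6c2* and *Ly6g*, was the most abundant of them, with 605, 106 and 169 CPM in *Tet2*+/+ and 980, 1409 and 356 CPM in *Tet2*-/- mice. Mice 19, 5 and 7 were its highest, the same 3 as for *Ly6g*. Its log2 fold change was 1.64 (standard error 0.75, adjusted p = 0.639), and 2.73 without mouse 19. *9030619P08Rik*, another transcribed pseudogene between *Ly6g* and *Ly6h*, reached 16.3 CPM in mouse 19 and at most 5.85 CPM elsewhere. None of the 4 was called by edgeR or DESeq2, and 0 had an unadjusted p under 0.05.

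Of the Ly6/uPAR genes elsewhere in the genome, 10 of 21 were tested. *Cd177*, another neutrophil surface protein, had 1631, 254 and 1073 CPM against 1826, 1698 and 470 CPM (log2 fold change 0.43, standard error 0.72, adjusted p = 0.910). *Plaur*, the urokinase receptor, stood at 1.25 on the log2 scale (standard error 0.54, adjusted p = 0.623), and at 0.58 without mouse 7. *Cd59a*, an inhibitor of complement, was lower without overlap, with 4.49, 1.28 and 2.04 CPM against 0.253, 0 and 0.217 CPM (adjusted p = 0.324 with edgeR, called by DESeq2), and *Lypd5* was lower without overlap at no more than 1.34 CPM (adjusted p = 0.474). For these 10 genes edgeR called 0, 2 had an unadjusted p under 0.05 and DESeq2 called 1.

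The 26 tested genes that build and attach the GPI anchor, on which most Ly6 proteins depend, were read as well. With edgeR 0 were called, 1 had an unadjusted p under 0.05, and DESeq2 called 0. Their summed level was 812 to 879 CPM in *Tet2*+/+ and 885 to 1000.5 CPM in *Tet2*-/- mice, and their median log2 fold change was 0.09. The mean log2(CPM + 1) of the 26 genes, each centred over the mice, overlapped, at -0.08 to 0.05 in *Tet2*+/+ and -0.10 to 0.14 in *Tet2*-/- mice. *Pigt*, a subunit of the transferase that attaches the anchor, had -0.15 (standard error 0.31, adjusted p = 0.929). *Gpaa1*, another subunit, lies beyond *Ly6h* on the same chromosome and had 0.58 (standard error 0.22, adjusted p = 0.602), and *Gpaa1*, *Pigq* and *Pigx* were higher without overlap.

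As a description of how the members varied over the 6 mice, the genes with the most similar pattern were sought by Pearson's r of log2 CPM among genes averaging 10 CPM or more. The points share libraries and genotypes, and with 6 mice high values arise easily among so many genes. For *Ly6c2* these were *Mthfd2*, *App* and *Zc3h18* with r of 0.998, 0.997 and 0.996. For *Ly6g* they were *Tnfsf13b*, *Gyg* and *Selenoo* with r of 0.994, 0.993 and 0.982. For *Ly6a* they were *Klra2*, *Ifitm1* and *Fanci* with r of 0.986, 0.985 and 0.979. For *Ly6k* none is given, since the mice form 2 widely separate groups in its values. The values of *Ly6c2* also part by genotype, with a smaller gap, so the genotype difference enters its r values too.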

How the data were processed

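RNA-seq libraries (TruSeq RNA v2, unstranded) of 6 sorted AML blast samples were quantified by the authors with Salmon 0.12.0 against GRCm38 transcripts. The authors deposited an estimated count for each transcript, not normalized, and beside it a TPM value, which Salmon scales by effective transcript length to a fixed total. Here, the counts of a gene's GENCODE M21 transcripts were added up and rounded. Of 136288 transcripts, 112 had no gene there and held 0.0307% to 0.0416% of the reads. Genes with normalized counts adding up to 10 or more were tested, and genotypes were compared with edgeR 4.0.16 (quasi-likelihood, TMM, Benjamini-Hochberg, threshold 0.05) in R 4.3.3, without covariates. Standard errors are log2 fold changes over the root of the F statistic. DESeq2 1.42.0 was an alternative, also on length-scaled counts made from TPM. Transcripts were compared as log2(TPM + 1) with limma 3.58.1. Identities were computed with Biopython 1.88 and count gaps as differences. The edgeR and DESeq2 gene fits were tested on simulated counts. The members and lists were chosen with earlier results of these data known. Named genes are all members, the 2 most abundant, called or non-overlapping genes of each Ly6/uPAR and GPI list, the 2 nearest tested genes on each side, and the 3 genes most alike. Each mouse was 1 library, so the tests measure spread between mice. The labels do not name the marrow donors, so whether mice of a genotype shared a donor is unknown. The alternatives were the other tests, filters and scalings, leaving out each mouse, and summing *Ly6c1* with *Ly6c2*.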

Additional observations from a re-analysis of the deposited data

How the results depend on the processing

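The count of members called lower by edgeR was 0 with any single mouse omitted, since *Ly6k* then missed the threshold each time, although its log2 fold change stayed between -4.72 and -4.10. In all, edgeR then called between 0 and 7 genes. DESeq2 on either kind of count called 1 member higher, *Ly6c2*, and 1 neighbouring gene lower, *D730001G18Rik*. Members lower without overlap numbered between 1 and 3 with 1 mouse left out: 2 without mouse 24, with *Ly6d* added, and 3 without mouse 5, with *Lynx1* added. Members higher without overlap numbered between 2 and 5: *Ly6c1* was added without mouse 19, and without mouse 8 *Ly6a*, *Ly6c1* and *Ly6g* were. Non-overlap is commoner with fewer mice: 10.97% to 15.2% of all genes were then lower and 8.99% to 15.5% higher without overlap. In the settings named, these were 10.97% lower without mouse 24, 13.6% lower without mouse 5, 12.7% higher without mouse 19 and 12.6% higher without mouse 8. The log2 fold change of *Ly6g* was 3.11 without mouse 19 and 1.11 without mouse 7, that of *Lynx1* -4.07 without mouse 5 and -0.05 without mouse 23, that of *Ly6c1* 1.995 without mouse 19, that of *Ly6d* -2.26 without mouse 5, and that of *Ly6a* 0.57 without mouse 5. That of *Ly6e* turned to 0.18 without mouse 23 and 0.01 without mouse 7. Scaling by library size only shifted the median of all genes by -0.17. With it 12.03% of all genes were lower and 2.69% higher without overlap, and the members without overlap stayed the same.

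Log2 fold changes of some other named genes changed sign. *Tet2* was -0.046 on length-scaled counts with edgeR and -0.049 with DESeq2, and *Pigq* was -0.017 with library size only. With 1 mouse left out, *9030619P08Rik* ran from -2.55 to 4.72 (without mouse 19), *Cd177* from -0.033 (without mouse 23) to 0.9998, *Pigt* from -0.52 to 0.082 (without mouse 5) and *Them6* from -1.64 (without mouse 5) to 0.45. *Them6* was also -0.040 with DESeq2 on length-scaled counts, -0.027 with edgeR on them, -0.0019 with filterByExpr and -0.13 with library size only. The causes were not tested. No pair of members shared most of its 31-base windows, so the closest pair, *Ly6c1* and *Ly6c2*, was summed. No paired analysis was made because the labels give no pairing of mice between the genotypes.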
